A study of Oryza sativa with 24 samples.

Results

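The genes described here are the 137 rice genes whose RNA was higher after cold in the anthers of all 4 lines studied, out of 32511 identifiers that stood on 1 row of the deposited tables. A gene was included when its change, log2(mean of the 3 cold values + 1) minus log2(mean of the 3 untreated values + 1), was at least 1.5 in each line, and when its cold mean was at least 10 in at least 1 line. The genes were thus selected on the cold-against-untreated contrast itself, and every cold change below describes them and tests nothing. All 137 were among the 22495 genes tested, those that reached 1 in 3 or more libraries.

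The study sequenced anther RNA of Oryza sativa from 8 groups of 3 libraries. Anthers of Nipponbare, Sasanishiki, PL9 and Lambayeque1 came either from plants kept at 12 °C for 4 days in the booting stage or from untreated plants. All lines were raised under glass with days of 25 °C and nights of 19 °C, 20 plants to a pot and trimmed to the main stem. Cold was applied at an AD within 1 cm of 0, the stage the labels call early microspore, and plant age and the number of plants per library are not given. Whether replicate libraries stem from different plants is not stated, so p-values reflect library-to-library spread, part of which may be technical.

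At this stage the tapetum, the innermost layer of the anther wall, feeds the young microspores and builds the outer pollen wall before it degenerates. Tapetal cells make fatty-acid precursors of sporopollenin, the polymer of that wall, and lipid transfer proteins carry lipids from the tapetum toward the wall. Proteases take part in the later breakdown of the tapetum. Cell wall invertases split sucrose outside the cell and so supply sugars to tissues that import them, the anther among them. Cold at this stage is a known cause of male sterility in rice. In bulk anthers, fewer cells of a type and less RNA per cell cannot be told apart.

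The labelled tissue was checked against marker lists. A listed gene counts as measured where it was among the tested genes and its name was not found at another place in the reference, which left out 1 meiosis gene. The 3 measured stamen identity genes summed to 1684 to 2851 in cold libraries and 1618 to 3831 in untreated ones. The 4 measured carpel and outer floret genes summed to at most 14.6 in cold libraries and 19.9 in untreated ones, with 1 to 3 of the 4 below 1 in each library. Values are named TPM in the file headers, a unit scaled by transcript length. Their sums over all rows of a column, 1197373 to 1722921, exceed the fixed sum of that unit. These sums include the identifiers on several rows, whose values are repeated across libraries, so they are not sums over 1 library. Whether the values of 1 library reach the fixed sum was not tested, and they are called abundance values here. No read counts are given, so the depth of the libraries is unknown.

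Library 1 of PL9 cold stood apart from the other two of its group for these genes. The median of the 137 genes was 5.08 there, against 62.5 and 33.0 in PL9 cold libraries 2 and 3. It held the lowest value of its group for 117 genes, and 35 genes were at or below their highest untreated PL9 value. Its median share of the mean of libraries 2 and 3 was 11.8% over the 137 genes. Over the 9179 tested genes with a mean of at least 10 in libraries 2 and 3, that share was 98.0%. Library 2 held the highest value of its group for 112 of the 137. Over all tested genes, on log2(value + 1), the median correlation with the rest of the group was 0.905 for library 1 and 0.891 for library 2. These were the lowest of the 24 libraries, and library 3 stood at 0.941. The set size, the line orders and the line tests that rest on PL9 cold library 1 are given with and without it.

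**Figure D1:**
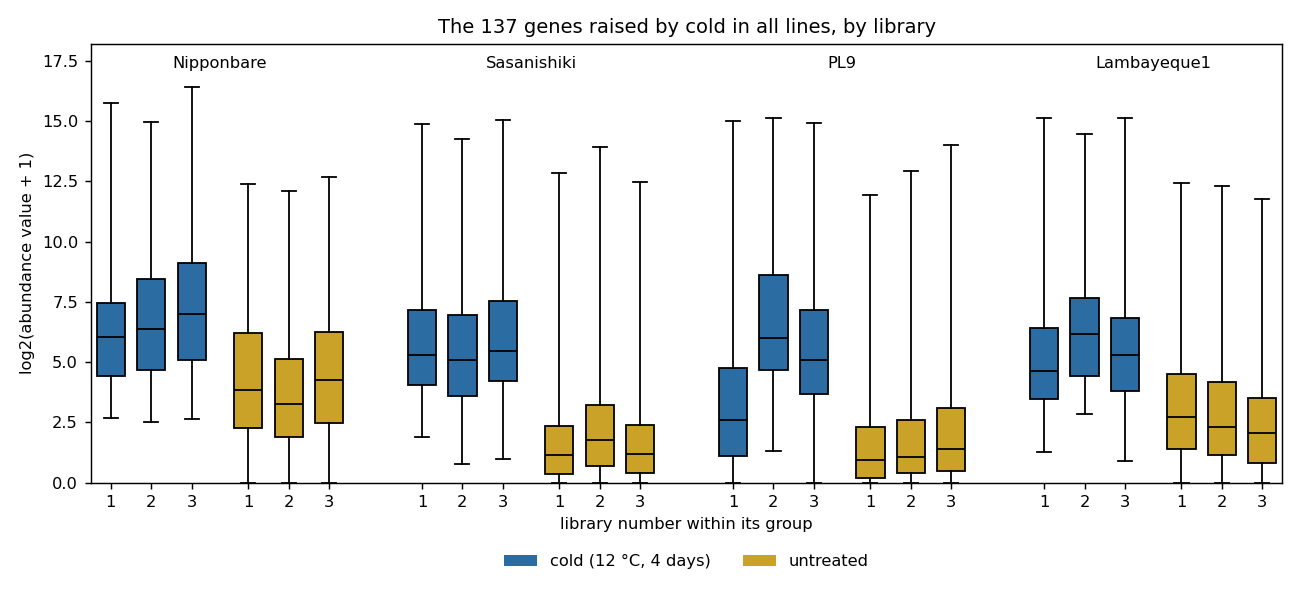
Box plots of the 137 genes in each of the 24 libraries, on log2(abundance value + 1); boxes span the quartiles with the median as a line, and whiskers reach the lowest and highest gene. The medians of the cold libraries lie above the untreated medians of the same line in every line, while some boxes overlap, and PL9 cold library 1, with a median value of 5.08, lies lowest among the cold libraries.

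The set was the far end of a graded overlap between lines. Of 10913 genes that met the cold level, 652 passed the change threshold in exactly 1 line, 330 in 2 lines, 208 in 3 lines and 137 in all 4. By line, 563 genes passed in Nipponbare, 651 in Sasanishiki, 789 in PL9 and 481 in Lambayeque1. Among the 208 genes that passed in 3 lines, Nipponbare was the missing line for 77, Lambayeque1 for 59, Sasanishiki for 39 and PL9 for 33. Nipponbare therefore set the limit of the set most often.

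Without PL9 cold library 1 the rule gave 136 genes, 134 of them shared with the 137. Without PL9 cold library 2 it gave 127 genes, 118 of them shared. The threshold cut through a continuum. Just inside it were Os04g0645500, with a smallest change of 1.52 in Nipponbare, Os02g0558300, with 1.52 in Sasanishiki, and Os10g0150000, with 1.52 in Sasanishiki. Just outside it were Os02g0525100, with a smallest change of 1.49 in PL9, Os05g0215183, with 1.49 in Lambayeque1, and Os01g0912400, with 1.49 in Sasanishiki. Os04g0645500 changed far more in the other lines, by 4.85 to 6.65, while Os02g0558300 stayed between 1.52 and 1.68 in all 4. When 1 library was left out, the smallest change ran from 1.24 to 1.91 for Os04g0645500, from 1.36 to 1.56 for Os02g0558300 and from 1.12 to 1.83 for Os10g0150000.

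In limma's fit on log2(value + 1), with Benjamini-Hochberg adjustment over all tested genes, 95 of the 137 were higher in cold Nipponbare, 131 in Sasanishiki, 123 in PL9 and 106 in Lambayeque1. The same call was made for 12% of all tested genes in Nipponbare, 12.6% in Sasanishiki, 9.05% in PL9 and 11.3% in Lambayeque1. All 3 cold values lay above all 3 untreated values for 127 of the 137 in Nipponbare, 133 in Sasanishiki, 101 in PL9 and 132 in Lambayeque1. This held for 20.1%, 18.7%, 16.6% and 21.7% of all tested genes in the same lines. PL9 cold library 1 was at or below the highest untreated PL9 value for 35 of the 137. In 95 genes the groups did not overlap in any of the 4 lines, against 3.66% of tested genes. The rule chose the genes on this contrast, so nothing is read from these shares.

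Among the genes of known function, the most abundant were secreted lipid transfer proteins. OsC4 (Os08g0546300, chromosome 8), an anther lipid transfer protein, had the largest smallest change of the set. Its values were 55274, 32388 and 86245 in cold Nipponbare, against 1163, 809 and 1103 in untreated Nipponbare. Cold Sasanishiki had 6308, 12350.5 and 10374, against 7.53, 7.18 and 11.8 in untreated Sasanishiki. The groups did not overlap in either line, and untreated Nipponbare lay far above untreated Sasanishiki.

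In PL9, OsC4 had values of 1681, 35612 and 14108 in cold anthers, against 7.78, 35.9 and 40.3 in untreated ones. In Lambayeque1 it had 10924, 21699 and 17818 in cold anthers, against 75.7, 197 and 28.1 in untreated ones. Even the low PL9 cold library 1 was above every untreated PL9 value. The changes were 5.82 in Nipponbare, 9.94 in Sasanishiki, 9.21 in PL9 and 7.38 in Lambayeque1, all on the log2 scale.

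OsC6 (Os11g0582500, chromosome 11), a lipid transfer protein of the tapetum that takes part in making the outer pollen wall, had the highest cold level of the set averaged over the 4 lines and one of the smallest changes. It averaged 20830.2 ± 6056 in cold Nipponbare, against 5439 ± 1114 in untreated Nipponbare (SD, n = 3 each). In Sasanishiki it averaged 27682 ± 7256 in cold anthers and 9501 ± 5196 in untreated ones. In PL9 it averaged 28763 ± 5824 in cold anthers and 9327 ± 6376 in untreated ones, and in Lambayeque1 31390.3 ± 7674 in cold anthers and 4691 ± 1077 in untreated ones. The groups did not overlap in any line. OsC6 was abundant without cold everywhere, and its changes were 1.94, 1.54, 1.62 and 2.74 in the same order of lines. In PL9 cold library 1 it stood at 32749.8, the highest of its group, where most other genes of the set were lowest. Its smallest change dropped below the threshold, to between 1.26 and 1.48, without Sasanishiki control library 1 or 3, Sasanishiki cold library 1 or 3, or PL9 control library 1.

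Next among the most abundant genes was Os09g0525500, whose name and role are not given in the sources used here. Its cold values were 25595, 14321 and 48821 in Nipponbare, against 1350.1, 735 and 1368 untreated. In PL9 they were 47.2, 19396 and 6129 in cold anthers, against 0.3, 0.126 and 0.842 untreated. Its PL9 change of 12.55 was the largest of any gene of the set in any line, and its Sasanishiki change was 10.45. The cold means over the 4 lines reached 10000 for OsC6, OsC4 and Os09g0525500, 1000 for 11 genes, 100 for 54 and 10 for 127.

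**Figure D2:**
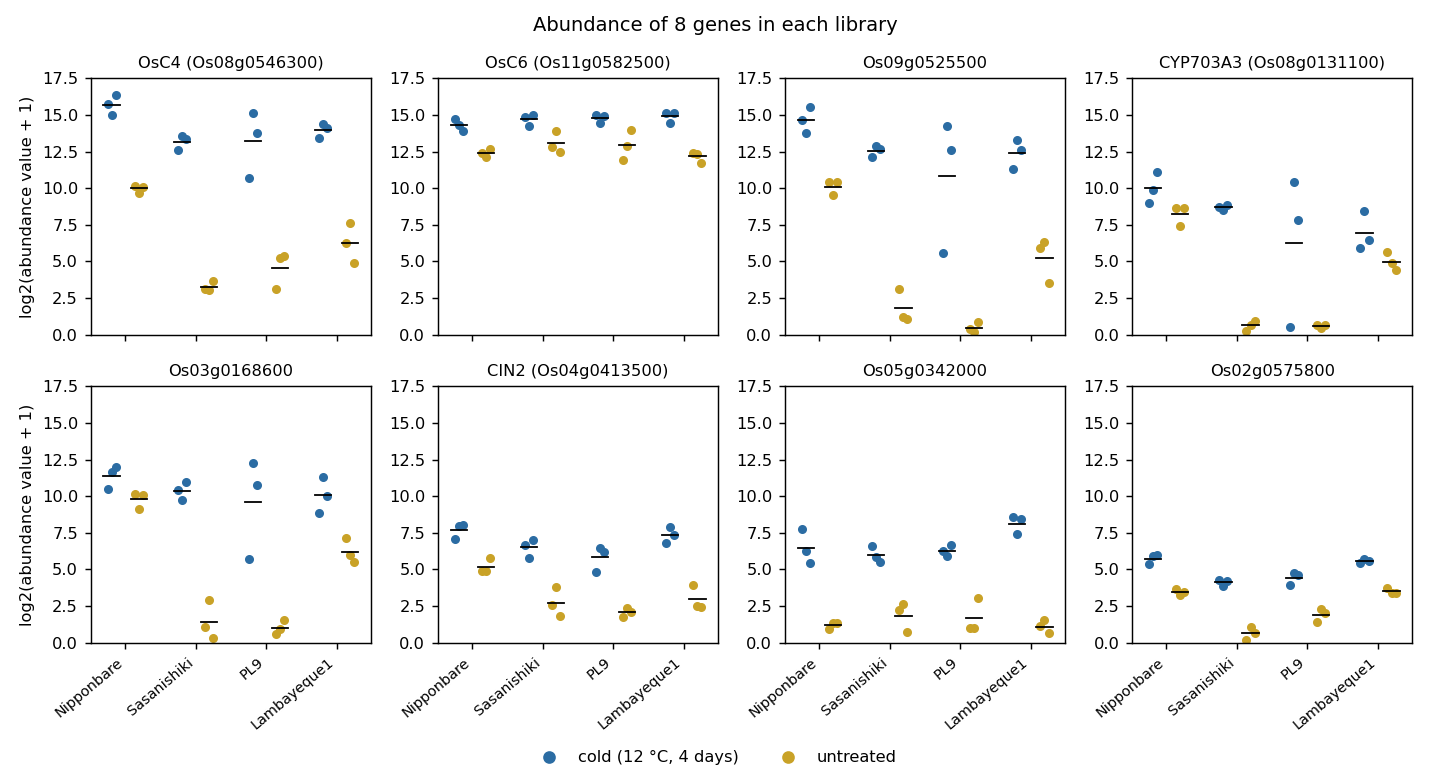
Each library's log2(abundance value + 1) for 8 genes of the set, cold left of untreated in each line, with the mean of the 3 log values as a bar. OsC6 was high in all untreated lines, whereas CYP703A3 and Os03g0168600 were far lower in untreated Sasanishiki and PL9 than in untreated Nipponbare and Lambayeque1.

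CYP703A3 (Os08g0131100, chromosome 8) is a cytochrome P450 that hydroxylates fatty acids for the pollen wall. Its values were 499, 955 and 2196 in cold Nipponbare, against 392, 172 and 391 in untreated Nipponbare. Cold Sasanishiki had 424, 360.0 and 467, against 0.208, 0.558 and 0.951 in untreated Sasanishiki. The change of 8.06 in Sasanishiki thus began below a value of 1, and that of 1.93 in Nipponbare began at a mean of 318 ± 127 (SD, n = 3).

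In PL9 the same gene read 0.418, 1405 and 226 in cold anthers, against 0.57, 0.38 and 0.566 in untreated ones. In Lambayeque1 it read 58.9, 346 and 85.7 in cold anthers, against 48.3, 28.4 and 20.6 in untreated ones. PL9 cold library 1 was inside the untreated range, so the PL9 groups overlapped. CYP703A3 left the set when Nipponbare cold library 3 or Lambayeque1 cold library 2 was dropped, with smallest changes of 1.19 and 1.13. The gene next to it, Os08g0131150, was also in the set, and reads of the pair may not be separable.

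OsAP25 (Os03g0186900, chromosome 3), an aspartic protease that promotes death of tapetal cells, had values of 576, 1678 and 1748 in cold Nipponbare, against 101, 33.8 and 239.7 in untreated Nipponbare. In Sasanishiki it had 507, 454 and 1321 in cold anthers, against 1.99, 4.07 and 0.967 in untreated ones. Its changes were 3.41 in Nipponbare, 7.83 in Sasanishiki, 8.69 in PL9 and 6.42 in Lambayeque1. As with CYP703A3, Nipponbare had the smallest change and the highest untreated level.

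CIN2 (Os04g0413500, chromosome 4), a cell wall invertase best known for grain filling, was the 1 member among the 8 measured genes of the sugar supply list. Over all tested genes the share of members was 0.609%, so nothing is read from this count. It averaged 217 ± 70.3 in cold Nipponbare and 37.4 ± 14.9 in untreated Nipponbare (SD, n = 3 each). Cold Sasanishiki averaged 95.6 ± 38.8 and untreated Sasanishiki 6.73 ± 5.36. Cold PL9 averaged 62.9 ± 32.3 and untreated PL9 3.29 ± 0.851, while cold Lambayeque1 averaged 169.8 ± 66.3 and untreated Lambayeque1 7.83 ± 5.52. The groups did not overlap in any line. The changes of 2.50 to 4.27 had a range of 1.77 across lines, narrower than those of OsC4, OsAP25 and CYP703A3, at 4.12, 5.28 and 6.57, and wider than that of OsC6, at 1.20. The invertases CIN1 and CIN3 of the same list were not members, with changes of -0.26 to 0.70 and -2.23 to 0.57. Median changes of the 8 genes were 0.27 in Nipponbare, 0.51 in Sasanishiki, 0.24 in PL9 and -0.05 in Lambayeque1.

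The list of tapetum and pollen wall products had 15 measured genes, of which 6 were members and 5 more passed in 3 lines, against 0.609% and 0.925% of all tested genes. The list and the set were both chosen with results known, so nothing is read from these counts. The median change of the 15 was 1.52 in Nipponbare, 4.95 in Sasanishiki, 5.86 in PL9 and 2.66 in Lambayeque1. Over all tested genes it was 0.00 in Nipponbare, Sasanishiki and PL9 and 0.01 in Lambayeque1. The members were OsC4, OsC6, OsAP25, CYP703A3, Os03g0168600 and Os06g0607700, the last 2 listed under names that could not be checked. RAFTIN1, a protein of the tapetal surface bodies, passed in Nipponbare at 1.52 and had 1.20, 0.84 and 1.03 in Sasanishiki, PL9 and Lambayeque1. The aspartic protease OsAP37 missed through Lambayeque1, at 1.07, and the cysteine protease OsCP1 through Nipponbare, at 0.46. Some genes of the list, under names that could not be checked, fell in a line. Os10g0524500 changed by 0.001 in Nipponbare, 4.025 in Sasanishiki, 5.86 in PL9 and -2.001 in Lambayeque1. Os07g0411300 changed by 0.119, 5.834, 7.54 and -1.374 in the same order of lines. Os10g0494300 stayed between -0.103 and 0.714. All other measured genes of the list had positive changes in every line.

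None of the 6 measured tapetum regulators was a member. EAT1, a bHLH factor upstream of the aspartic proteases, came nearest, with changes of 0.92 in Nipponbare, 1.95 in Sasanishiki, 1.78 in PL9 and 1.75 in Lambayeque1. PTC1, a PHD-finger regulator of the tapetum, differed in sign between lines, at -0.87 in Nipponbare, 3.20 in Sasanishiki, 3.57 in PL9 and -0.67 in Lambayeque1. Os03g0296000, listed under a name that could not be checked, also differed in sign. It changed by -1.93 in Nipponbare, 2.465 in Sasanishiki, 6.05 in PL9 and -2.32 in Lambayeque1. UDT1, an early bHLH factor of tapetum development, stayed between -0.19 and 1.16. TIP2 stayed between -0.16 and 0.725, and MSP1 between 0.38 and 1.61.

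The other lists held no member, and since 0.609% of all tested genes were in the set, nothing is read from a count of 0 in lists of this size. These were meiosis with 5 measured genes, stamen identity with 3, carpel and outer floret with 4, green tissue with 3, jasmonate with 4, clock with 3 and cold regulators and protective proteins with 9. The cold list had median changes of -1.89 in Nipponbare, -1.89 in Sasanishiki, -0.53 in PL9 and -2.50 in Lambayeque1. Its summed level was 49.95 to 477 in cold libraries and 91.1 to 2010.0 in untreated ones, and the value of 477 was that of PL9 cold library 2. Of the 3 genes of the maturing pollen list, 2 stood on several rows. The other, Os06g0223300, reached 1 in fewer than 3 libraries and so was not tested. It averaged 4.81 in untreated Sasanishiki and 0.0118 to 0.194 in the other groups.

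The summed levels of meiosis and green tissue markers differed between treatments in some lines and overlapped in others. The 5 measured meiosis genes summed to 10.6 to 12.1 in cold Nipponbare, against 18.4 to 20.2 untreated, and to 12.9 to 18.4 in cold PL9, against 27.8 to 40.1 untreated. They summed to 13.5 to 16.7 in cold Lambayeque1, against 24.3 to 30.2 untreated, and to 26.6 to 35.7 in cold Sasanishiki, against 31.1 to 44.6 untreated. The 3 green tissue genes summed to 302 to 1174 in cold Nipponbare, against 168 to 517 untreated, and to 255 to 693 in cold Sasanishiki, against 204 to 297 untreated. They summed to 174 to 618 in cold PL9, against 74.2 to 120.5 untreated, and to 199 to 405 in cold Lambayeque1, against 268 to 338 untreated. The meiosis sums overlapped in Sasanishiki, and the green tissue sums in Nipponbare, Sasanishiki and Lambayeque1. None of these differences was tested, and their part in the changes of the set was not tested.

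The median size of the change varied between lines, and this was described and not tested. The median change of the 137 genes was 2.31 in Nipponbare, 3.46 in Sasanishiki, 3.61 in PL9 and 2.89 in Lambayeque1, and the highest were 5.82, 10.45, 12.55 and 7.38. PL9 had the largest change for 57 genes, Sasanishiki for 32, Lambayeque1 for 27 and Nipponbare for 21. Nipponbare had the smallest for 71, Lambayeque1 for 24, Sasanishiki for 23 and PL9 for 19. The untreated values enter each change, so these orders and the untreated levels are not independent of each other.

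The place of PL9 in that order rested on its library 2. Without PL9 cold library 2 the PL9 median change was 2.67, PL9 had the largest change for 23 genes, and Sasanishiki had it for 56. Without PL9 cold library 1 the PL9 median was 4.08 and PL9 had the largest change for 76 genes. Without PL9 cold library 3 these values were 3.74 and 62. Nipponbare had the smallest change for the most genes in each of these settings, 63 to 74 of 137.

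**Figure D3:**
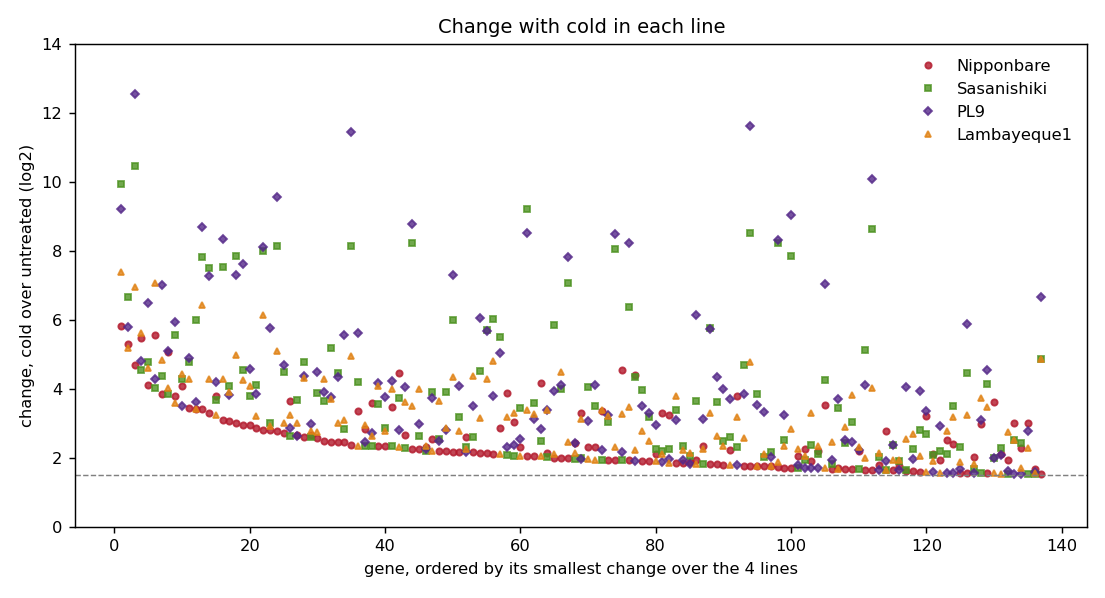
Change with cold (log2) of each of the 137 genes in the 4 lines, with genes ordered by their smallest change and the threshold of 1.5 dashed. Nipponbare holds the lowest point for 71 genes, and the points above 8 belong to PL9 and Sasanishiki.

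Genes differed widely in how evenly the lines changed. The range of a gene's change over the 4 lines had a median of 1.91, from 0.13 to 9.86, against a median of 0.76 over all tested genes. The evenest by group means were Os01g0632000, at 2.21 to 2.34, and Os02g0558300, at 1.52 to 1.68. The libraries of Os01g0632000 spread widely, and its cold and untreated values overlapped in Sasanishiki, PL9 and Lambayeque1. In Sasanishiki it had 12.9, 0.726 and 17.9 in cold anthers, against 8.08e-06, 0.166 and 4.29 untreated. Its even change therefore does not show an even response of the libraries. The widest was Os07g0655851, at 1.77 in Nipponbare and 11.63 in PL9. Its neighbour Os07g0655800 came next at 2.37 in Nipponbare and 11.44 in PL9. These neighbours may share reads, so they cannot be counted as separate cases.

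The wide ranges came with very low untreated values in some lines. Os07g0655800 had 92.5, 6449 and 2952 in cold PL9, against 0, 0.14 and 0.269 in untreated PL9. In Nipponbare it had 5720.4, 5430.2 and 10945 in cold anthers, against 1902, 1212 and 1149.8 in untreated ones. The cold values of the 2 lines overlapped, whereas the untreated values lay far apart. Os03g0168600, next by range, had 1386, 836 and 2035 in cold Sasanishiki, against 1.1, 6.45 and 0.227 untreated, and 1459, 3259 and 4053 in cold Nipponbare, against 1128, 558 and 1096 untreated. Its smallest change was 1.39 without Nipponbare control library 2 and 1.35 without Nipponbare cold library 3.

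Genes with smaller differences in baseline also appeared at the top of the set. Os05g0342000, of no given role, had 375, 173 and 341 in cold Lambayeque1, against 1.18, 1.89 and 0.545 untreated. In Nipponbare it had 213, 75.9 and 42.9 in cold anthers, against 0.943, 1.58 and 1.55 untreated. Its changes ran from 4.02 in Sasanishiki to 7.07 in Lambayeque1, and its untreated means stayed between 1.21 and 3.13. PL9 cold library 1 was not low for it, at 73.9, against 58.5 and 102 in libraries 2 and 3.

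Some untreated groups were listed at 0. This held for 1 gene of the set in Nipponbare, 4 in Sasanishiki, 4 in PL9 and 2 in Lambayeque1, or 8 different genes. For these the size of the change in that line is set by the added 1, and no fold is given. Untreated means were below 1 for 4 genes in Nipponbare, 50 in Sasanishiki, 66 in PL9 and 29 in Lambayeque1.

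The line order of levels was the same at the top with and without cold. Nipponbare had the highest cold mean for 105 of the 137 genes and the highest untreated mean for 107. Median group means were 102.5 in cold Nipponbare against 14.9 untreated, 40.9 in cold Sasanishiki against 1.85 untreated, 46.3 in cold PL9 against 1.07 untreated, and 46.6 in cold Lambayeque1 against 4.16 untreated. The cold PL9 median was 57.9 without PL9 cold library 1 and 24.5 without PL9 cold library 2. The lowest mean was in Sasanishiki or Lambayeque1 for 48 genes each after cold, and in PL9 for 65 and Sasanishiki for 47 without cold. Together the 137 genes took 5.07% to 23.7% of the summed abundance of identifiers on 1 row in cold libraries and 0.70% to 3.78% in untreated ones. Much of this lay in the 3 highest genes of the set in a library. They took 4.61% in PL9 cold library 1 and 14.4% in Nipponbare cold library 3, the libraries with the lowest and highest cold share. In untreated PL9 library 1 and untreated Nipponbare library 3, the lowest and highest untreated shares, they took 0.62% and 1.64%.

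Genes that were low in both untreated Sasanishiki and untreated PL9 were not all low in Nipponbare. For 41 genes both untreated means were below 1, and their medians after cold were 41.5 in Nipponbare, 22.4 in Sasanishiki, 19.6 in PL9 and 16.5 in Lambayeque1. Without cold the medians of these 41 genes were 4.96 in Nipponbare and 0.88 in Lambayeque1. For the other 96 genes the medians were 125 in cold Nipponbare, 61.2 in cold Sasanishiki, 69.1 in cold PL9 and 69.5 in cold Lambayeque1, and the untreated ones were 20.9 in Nipponbare, 4.16 in Sasanishiki, 2.88 in PL9 and 7.19 in Lambayeque1. Median changes of the 41 and the 96 were 2.57 and 2.25 in Nipponbare, 3.97 and 2.85 in Sasanishiki, 4.12 and 3.27 in PL9 and 3.18 and 2.78 in Lambayeque1. The split used untreated Sasanishiki and PL9 values, which also enter the changes of those lines.

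Differences between lines at the same treatment were tested, since the rule did not use them directly. The rule did use the same cold and untreated values. Its minimum cold mean had to be met in only 1 line, so a gene could enter through its level in that line. How far this selection shaped the line differences was not tested. In cold-treated anthers, 40 of the 137 genes, or 29.2%, differed among the 4 lines by limma's F test at an adjusted p under 0.05. This share was below the 33.7% of all tested genes. The count was 62 without PL9 cold library 1 and 84 without PL9 cold library 2.

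By pairs in the cold, 31 genes were higher and 1 lower in Nipponbare than in Sasanishiki, against 17.1% and 13.5% of all tested genes. That total of 32 was 12 without Nipponbare cold library 3, 18 without Sasanishiki cold library 1 and 17 without Sasanishiki cold library 2. Another 26 genes, or 19%, were higher in Nipponbare than in PL9 and 0 lower, against 4.52% and 3.07% of all tested genes. In that direction 77 genes had an unadjusted p under 0.05 and in the other 0. The Nipponbare and PL9 count was 9 without PL9 cold library 1 and 83 without PL9 cold library 2. It was 13 without PL9 cold library 3, 8 without Nipponbare cold library 3 and 16 in a fit on the 12 cold libraries alone.

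Cold Nipponbare and cold Lambayeque1 differed for 0 of the 137 genes in limma's test, with 37 higher and 2 lower at an unadjusted p under 0.05. The same comparison called 1.35% of all tested genes higher and 1.51% lower. The median difference was 1.08 on the log2 scale, against 0.00 over all tested genes, and 118 of the 137 genes were above 0. Without PL9 cold library 1, which belongs to neither line but enters the shared error, 18 genes were called, and 10 without PL9 cold library 2. The count was 1 without Nipponbare cold library 1 and 3 without Lambayeque1 cold library 2. Between cold Lambayeque1 and cold Sasanishiki, 13 genes were higher and 3 lower, against 14.9% and 10.7% of all genes, and the total of 16 was 25 without PL9 cold library 1. The numbers were 14 and 0 for Lambayeque1 over PL9, against 4.93% and 2.5%, with 31 and 0 at an unadjusted p under 0.05. Those 14 were 6 to 9 without any 1 Lambayeque1 cold library. For Sasanishiki over PL9 the numbers were 8 and 1, against 7.77% and 10.5%, and the total of 9 was 15 without PL9 cold library 1 and 37 without PL9 cold library 2.

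Among untreated lines more of the set was called. Limma's F test called 82 of the 137 genes, or 59.9%, different among the untreated lines, against 51.4% of all tested genes. Whether this share differs from that in the cold was not tested. Nipponbare was higher than Sasanishiki for 72 genes and lower for 2, against 23.3% and 16.8% of all tested genes. It was higher than PL9 for 76 and lower for 1, against 18.6% and 13.4%. The median differences were 1.79 over Sasanishiki and 1.94 over PL9 on the log2 scale, against 0.07 and 0.04 over all tested genes. Leaving out any 1 library left 56 to 86 genes different for the first pair and 54 to 89 for the second.

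Untreated Lambayeque1 lay between. Nipponbare was higher than Lambayeque1 for 23 genes and lower for 2, against 5.46% and 3.51% of all tested genes, with a median difference of 1.49. The count of 25 was 6 to 15 without any 1 Nipponbare or Lambayeque1 control library, and 64 without PL9 cold library 1 and 51 without PL9 cold library 2, which enter the shared error. A fit on the 12 untreated libraries alone called 69. Lambayeque1 was higher than Sasanishiki for 27 and lower for 3, a share close to the 18.5% of all tested genes that were higher, while 14.7% of all were lower. That total of 30 was 17 or 18 without Lambayeque1 control library 1 or 2 or Sasanishiki control library 1, and 46 in the fit on untreated libraries alone. Lambayeque1 was higher than PL9 for 18 and lower for 0, against 8.29% and 4.81%, with 35 higher and 1 lower at an unadjusted p under 0.05. Those 18 were 9 to 11 without Lambayeque1 control library 1 or PL9 control library 1 or 2, 29 without PL9 cold library 1, and 31 in the fit on untreated libraries alone. Untreated Sasanishiki was higher than PL9 for 7 and lower for 4, against 10.4% and 12.9% of all tested genes, and the total of 11 was 17 without Sasanishiki control library 3 and 19 in the fit on untreated libraries alone.

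**Figure D4:**
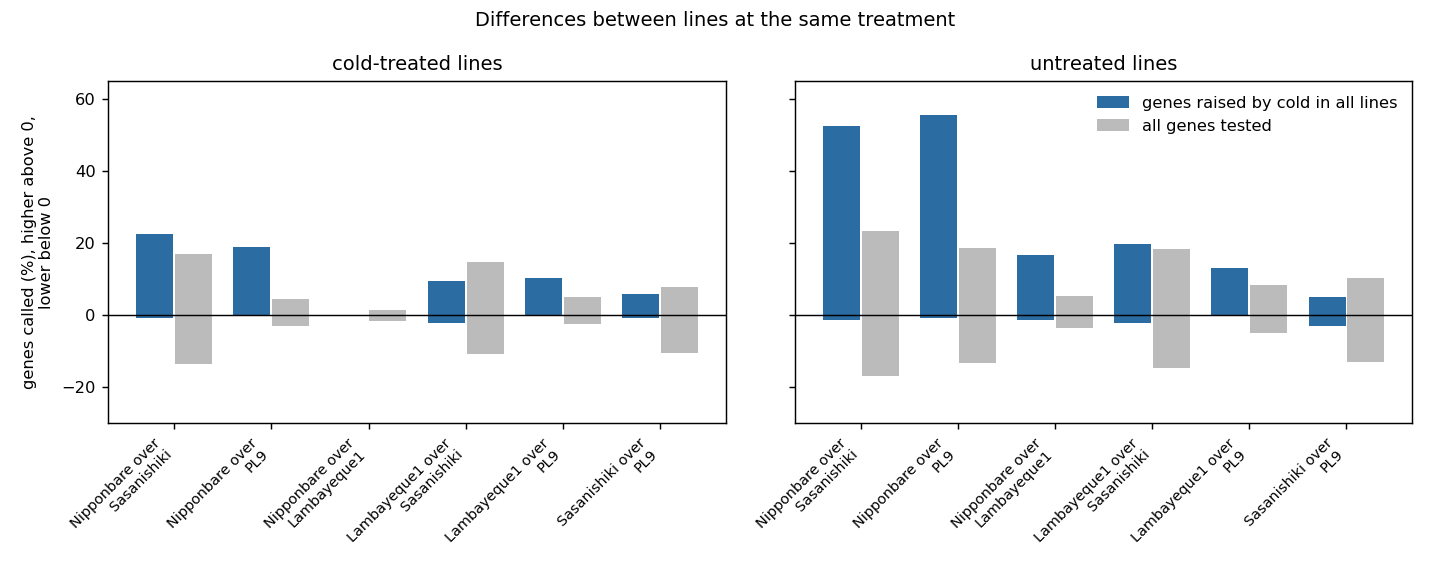
Share of the 137 genes (blue) and of all 22495 tested genes (grey) called higher (above 0) or lower (below 0) for each pair of lines within cold-treated and within untreated anthers, by limma at an adjusted p under 0.05. The tallest bars are untreated Nipponbare over PL9, at 55.5%, and over Sasanishiki, at 52.6%.

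Os02g0575800, of no given role, had the smallest p among untreated lines and the next smallest among cold ones. Its values in the cold were 40.6, 58.3 and 61.8 in Nipponbare, 42.1, 51.3 and 47.6 in Lambayeque1, 14.4, 26.5 and 23 in PL9 and 18.4, 13.9 and 17.4 in Sasanishiki. Without cold they were 11.6, 8.44 and 9.94 in Nipponbare, 12.5, 9.68 and 9.34 in Lambayeque1, 1.65, 3.88 and 2.98 in PL9 and 0.144, 1.09 and 0.56 in Sasanishiki. In both states Nipponbare and Lambayeque1 overlapped and lay above PL9 and Sasanishiki, and these overlapped in the cold. The adjusted p of limma's F test was 5.296e-05 in the cold and 2.603e-08 untreated.

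Os03g0168600 and Os07g0655800 were called among untreated lines and not among cold ones. For Os03g0168600 the adjusted p of limma's F test was 0.55 in the cold and 4.418e-06 untreated. For Os07g0655800 it was 0.28 in the cold and 1.449e-06 untreated. For Os03g0168600, cold Nipponbare differed from cold Sasanishiki by 1.01 ± 1.11 (SE, limma), and untreated Nipponbare from untreated Sasanishiki by 8.37 ± 1.11. The cold libraries of a group spread widely for both genes, and a p that misses the threshold does not show that the lines were alike.

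Among the named genes, OsC4 was higher in cold Nipponbare than in cold Sasanishiki by 2.53 ± 0.84 (limma, SE, adjusted p = 0.029). For CYP703A3 and OsAP25 that difference was 1.29 ± 1.47 (adjusted p = 0.55) and 0.82 ± 1.31 (adjusted p = 0.68). Untreated Nipponbare exceeded untreated Sasanishiki by 6.72 ± 0.84 for OsC4 (adjusted p = 3.21e-06), by 7.60 ± 1.47 for CYP703A3 (adjusted p = 0.0003917) and by 4.93 ± 1.31 for OsAP25 (adjusted p = 0.005557). For CIN2 the untreated difference was 2.48 ± 0.53 (adjusted p = 0.0009585). OsC6 stood out from them, with -0.69 ± 0.54 (adjusted p = 0.33) and an adjusted p of 0.37 in limma's F test among untreated lines.

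A few genes were called among cold lines and not among untreated ones. Os06g0693600, of no given role, had 55.6, 43.6 and 93.7 in cold Nipponbare, against 1.48, 2.29 and 1.7 untreated. In Sasanishiki it had 8.32, 6.58 and 9.93 in cold anthers, against 0.742, 1.96 and 1.62 untreated. Its adjusted p among lines was 3.083e-05 in the cold and 0.51 untreated by limma's F test. Whether the change itself differed between lines was not tested, since the rule set a minimum for the change in every line.

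Os03g0688000 had one of the steepest line orders in both states. Cold values were 822, 863 and 1916 in Nipponbare and 25, 26.9 and 26.7 in Sasanishiki, and untreated values were 158, 109.8 and 199 in Nipponbare and 0.162, 1.42 and 1.28 in Sasanishiki. Nipponbare exceeded Sasanishiki by 5.35 ± 0.88 in the cold (limma, SE, adjusted p = 9.727e-05) and by 6.35 ± 0.88 untreated (adjusted p = 1.025e-05). Os02g0299200 had a different order, with cold Sasanishiki above cold PL9 by 1.41 ± 0.24 (limma, SE, adjusted p = 0.0002078) and a value of -0.60 ± 0.24 for cold Nipponbare over cold Sasanishiki (adjusted p = 0.068). Its cold values were 11.3, 8.34 and 14.2 in Sasanishiki and 13.1, 11.3 and 8.74 in Lambayeque1. They were all under 10 in cold PL9 and cold Nipponbare. Os02g0299200 thus met the minimum cold mean only through Sasanishiki or Lambayeque1, and these p-values are not independent of the rule.

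Within a group, the genes of the set tended to share the same ranking of libraries. The rule used means of 3 libraries, so 1 high cold library could bring a gene into the set, and the ranking is not independent of the rule. When Nipponbare cold library 3, Lambayeque1 cold library 2 or PL9 cold library 2 was left out, 116, 116 and 118 of the 137 remained. In cold PL9, 105 of 137 genes ranked library 2 highest, then 3, then 1, as did 28.7% of all tested genes. In cold Lambayeque1 95 genes shared 1 ranking, again 2, 3, 1, against 22.1% of tested genes. In cold Nipponbare 78 genes ranked 3, 2, 1, against 15.6%, and in cold Sasanishiki 58 genes ranked 3, 1, 2, against 26.4%. The commonest ranking held 57 genes in untreated Nipponbare, 50 in Sasanishiki, 51 in PL9 and 55 in Lambayeque1, against 24.1%, 19.4%, 19.0% and 11.4% of tested genes. Genes read from the same libraries are not independent, and no test was made.

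The spread between libraries was wide. Library medians of the 137 genes were 64.2, 83.0 and 127 in cold Nipponbare, against 13.3, 8.52 and 18.0 untreated. They were 38.7, 33.4 and 42.9 in cold Sasanishiki, against 1.20, 2.42 and 1.28 untreated, and 23.6, 70.9 and 38.1 in cold Lambayeque1, against 5.67, 3.99 and 3.13 untreated. No cold library median overlapped the untreated ones of its own line, PL9 included, where the untreated medians were 0.93, 1.09 and 1.63.

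A minority of the set was not low in PL9 cold library 1. Of the 137 genes, 66 stood there at under 10% of the mean of libraries 2 and 3, whereas 31 stood at 50% or more and 10 at 100% or more. OsC6 was among these 10, at 122%. Os10g0150600 and Os01g0520500, chosen here after their values were seen, stood highest, at 408% and 294%. Os10g0150600 read 158, 5.22 and 72.2 in cold PL9, against 5.19, 3.51 and 2.19 untreated, and in cold Lambayeque1 it was also highest in library 1, with 425, 70.9 and 182, against 81.3, 67.2 and 25.9 untreated. In the tapetum regulator list, the summed level of PL9 cold was 223, 719 and 288 in libraries 1, 2 and 3.

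**Figure D5:**
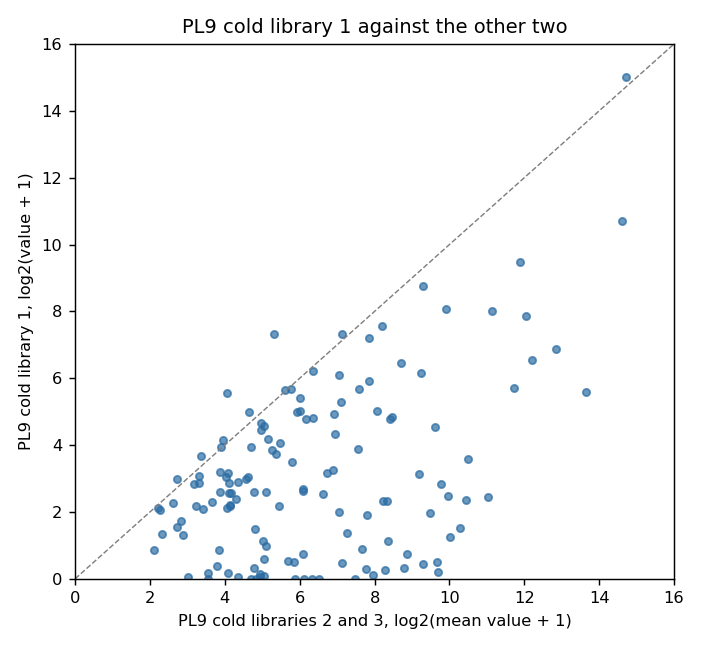
Each point is 1 of the 137 genes, with PL9 cold library 1 on the vertical axis and the mean of PL9 cold libraries 2 and 3 on the horizontal axis, both as log2(abundance value + 1), and the dashed line marks equality. Most points fall below the line, and 10 genes, OsC6 among them, are on or above it.

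The genes were spread over all 12 chromosomes, with 23 on chromosome 2, 22 on chromosome 3, 17 on chromosome 1 and 3 on chromosome 10. As a share of the tested genes these were 0.90%, 0.77%, 0.54% and 0.26%. In the order of identifiers, 18 genes lay within 3 places of another gene of the set, forming 9 pairs, 7 of them direct neighbours. Neighbours whose identifiers differ by few steps, such as Os07g0655800 and Os07g0655851, may be overlapping models that share reads.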

How the data were processed

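RNA abundance was analysed in 24 anther libraries of 4 rice lines, cold-treated or untreated, grouped by their titles, which number 3 libraries per group (the series text speaks of 2 replicates). Libraries were made with a dUTP strand-marking kit, per the labels' protocols. The deposited signal values, named TPM in the file headers, were made by the authors with kallisto 0.46.2 and sleuth 0.30.0 on build IRGSP-1.0, per the submitters' processing notes. Their roles are not given in the sources used here.

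Identifiers on several rows (5399) were left out because their values were repeated across libraries in a shifted order. Group means of log2(value + 1) over all 24 libraries were fitted in R 4.3.3 by the lmFit and trended eBayes steps of limma 3.58.1, for 22495 genes with at least 1 in at least 3 libraries, after the script was tested on simulated data. Each comparison had its own Benjamini-Hochberg adjustment, and genes under 0.05 were called. Tables and figures were made with Python 3.11.15, pandas 2.3.3, numpy 2.4.6 and matplotlib 3.10.9.

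The genes, gene lists and tests were chosen with earlier results of these data known. Genes named are the 12 with the largest smallest change and the 12 with the highest cold level, the 5 with the widest and narrowest range, the 5 firmest line differences in each treatment, list members, and those nearest the threshold. The text describes some of these, chosen after their values were seen. Names come from a RefSeq table of another assembly, checked by chromosome and relative order within 2%. Of the list entries, 62 agreed, 25 names were not in the table, 1 stood elsewhere and 1 was not matched in the files, and unchecked names are not printed. Alternatives covered the pseudocount, filter, scaling, repeated rows, thresholds, block, samples in the fit and each library left out.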

Additional observations from a re-analysis of the deposited data

Results flagged for a closer look

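Among the identifiers that stood on several rows, which no comparison above uses, 16 of 5399 met the same rule once their repeated values were read back to 1 value per library. All 5399 fitted the repeat pattern. The 16 included Os01g0600900, a gene of the green tissue list, with changes of 3.09 in Nipponbare, 3.66 in Sasanishiki, 5.54 in PL9 and 2.92 in Lambayeque1, and a cold mean of 383.8 in Nipponbare. Os11g0499600, with no name in the sources used here, changed by 2.87, 6.46, 7.50 and 3.26 in the same order of lines. Their values rest on an inferred order of libraries, so they were kept out of the set.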

How the results depend on the processing

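The set of 137 genes became 116 to 153 when 1 library was left out, 313 at a change threshold of 1 and 66 at a threshold of 2. It became 183 at a pseudocount of 0.1 and 77 at a pseudocount of 5. With the mean of the log2 values per group it held 127, 121 of them shared. It held 132 genes after quantile normalization, 124 of them shared. When 1 library was left out, the 40 genes that differed in the cold were 27 to 84, highest without PL9 cold library 2, and the 97 pairwise calls in the cold were 60 to 210, lowest without Nipponbare cold library 3 and highest without PL9 cold library 2. With a pseudocount of 0.1 these were 61. The 82 genes that differed among untreated lines were 69 to 96 and their 235 pairwise calls 180 to 321 when 1 library was left out. Fits on the 12 libraries of a treatment gave 32 genes and 76 pairwise calls in the cold, and 101 and 347 untreated. Pairs of lines moved by over 1.5 times under more settings. Nipponbare over Sasanishiki in the cold was 21, against 32, at a pseudocount of 0.1 and after quantile normalization, Nipponbare over PL9 was 13, against 26, at 0.1, Lambayeque1 over PL9 was 6 at 0.1 and 22 at 5, against 14, and Lambayeque1 over Sasanishiki was 27, against 16, at 5. Nipponbare over Lambayeque1 in the cold, at 0, was 1 to 4 at a pseudocount of 5, with repeated rows summed or with the block. Untreated, Lambayeque1 over PL9 was 28 at 0.1 and 9 at 5 (18), Sasanishiki over PL9 22 and 4 (11), Lambayeque1 over Sasanishiki 17 at 5 (30) and Nipponbare over Lambayeque1 16 with no filter (25). The cause was not tested.

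Replicate numbers did not pair the libraries in the same way in all lines. Same-numbered libraries had deviations correlated at -0.39 to 0.49 in the cold (18 pairs, 5 over 0.1) and -0.19 to 0.18 untreated (2 over 0.1). The 5 cold pairs, at 0.25 to 0.49, all lay among libraries 1 and 2 of Nipponbare, PL9 and Lambayeque1. Cold pairs with Sasanishiki stood at -0.39 to 0.01. What the correlated pairs shared was not tested. With the replicate number as a block, the cold counts were 41 genes and 94 pairwise calls, and the untreated counts 81 and 237.

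OsC6 left the set, with a smallest change of 0.37, under quantile normalization, and of 1.26 without PL9 control library 1. Depth is unknown, so no counting error could be given for low values.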
